A study of Mus musculus with 2 samples.

Results

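The transcripts described here are 220 spliced transcript models of annotated genes that carry at least 1 splice site absent from the annotation, read in the mouse adrenal gland. The members were chosen by class and reads. They are the models that TALON, the program behind the deposited annotation, placed in its class for new splice sites (NNC) in both libraries, with the same chromosome, strand and chain of introns, and with at least 5 reads in each library. Members' numbers and read counts are therefore given as a description, with no test. Replicate 1 held 16586 such models of annotated genes among its 88716 transcript models, and replicate 2 held 15824 among 85696. The libraries shared 2786 of them, and the 220 members were 7.90% of these. The members came from 181 genes and 215 of them from protein-coding genes.

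The RNA came from whole adrenal glands of males, 2 months old, with no treatment in the labels, of the strain B6CASTF1/J. It was sequenced as whole molecules (long reads) in 2 libraries that form 1 group. B6CASTF1/J is an F1 hybrid, so each animal carries a B6 and a CAST genome, while the reads were aligned to the B6-based build mm10. The biosample labels give the animals different numbers, but the library descriptions give both the same number and both libraries are tied to a single donor record. The libraries are thus not shown to come from separate animals, and the spread between them may be technical.

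Introns are removed between a donor site, where the exon ends and the intron usually starts with GT, and an acceptor site, where the intron usually ends with AG. A donor or acceptor a few bases from another can be used in its place, so that the exon gains or loses those bases. The best known case is the tandem acceptor NAGNAG, in which either AG can end the intron and the mRNA keeps or loses 1 triplet. A change that is no multiple of a triplet moves the reading frame, and a stop codon well upstream of the last exon junction is known to expose an mRNA to nonsense-mediated decay. Exons of a few bases (microexons) are known to be hard for aligners, which can place their bases at the edge of a neighbouring exon. The deposited files hold exon models and counts but no read sequences, so whether the reads carry the bases that a model adds was not tested. In the same way, an intron and a stretch missing from 1 parental allele cannot be told apart in exon models.

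The sequences at the most abundant members whose new donor sits just inside an annotated intron show the most frequent pattern among members that dominate their gene. They were read from GENCODE M21 transcripts (GRCm38/mm10) on the strand of the gene. In the donor lines any lower-case letters before the capitals end the annotated exon and the capitals are the bases that the member adds to it. The exon lines give, in capitals, the annotated exon that the same member leaves out downstream.
Idh3g donor, chrX:73782659-73782686, minus strand: agcatttcctcaGTAAgtacctgccttg
Idh3g exon, chrX:73782298-73782309, minus strand: CAACAAACAATT
Chmp1a donor, chr8:123212638-123212665, minus strand: GTAAGGGGCTGTCATCCACTTCGGGgtc
Chmp1a exon, chr8:123210216-123210235, minus strand: ATACCCTGTTCCAGTTGAAG
Pitpna donor, chr11:75603469-75603486, plus strand: actgcagaaccgGTGAgt
Pitpna exon, chr11:75608107-75608114, plus strand: TTATTACA
Mrpl33 donor, chr5:31614011-31614036, plus strand: ccgctgtctcttGTAAGTCGgtctga
Mrpl33 exon, chr5:31614603-31614621, plus strand: TTGCCAAGAGCAAGTCAAA
Capn2 donor, chr1:182484186-182484214, minus strand: ggcatctatgagGTACCGGCAGAGGATGG
Capn2 exon, chr1:182482536-182482547, minus strand: GTTCCAGAGGAG
In all 5 the added bases begin with the GT of the annotated donor. In all 5 they also run to a further GT, which in Capn2 lies just past the bases shown.

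The next sequences are examples of acceptors that moved by 3 nt, the single most frequent size of move. Capitals mark the triplet that the member adds to the exon (Ewsr1, Ap2a2) or leaves out of it (the others), and lower-case letters before the capitals are intron or upstream bases.
Ewsr1, chr11:5079508-5079534, minus strand: ttatccccccagCAGcgctggagagcg
Ap2a2, chr7:141611321-141611347, plus strand: tgtcctgcccagAAGaccctgcggtgc
Psap, chr10:60299464-60299481, plus strand: CAGaatctggtccaggcc
Flii, chr11:60720480-60720497, minus strand: TAGggagcgggtccaagg
Tmco3, chr8:13308346-13308363, plus strand: CAGgtgacatcgactaca
Star, chr8:25810945-25810962, plus strand: GAGaacggggacgaagtg
Each triplet ends in AG.

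The last set shows a donor moved into the intron by 10 nt in Dctn2, a donor moved into the exon by 3 nt in Abcb1b, and the ends of an intron that lies wholly inside an annotated exon in Srd5a2. Capitals mark the added bases, the bases left out, and the first or last 2 bases of the new intron.
Dctn2 donor, chr10:127267471-127267498, plus strand: gagtttgatgcgGTAAGACTGTgtgcta
Abcb1b donor, chr5:8853612-8853638, plus strand: atggctggatcaGTGgtgagcacgttt
Srd5a2 intron start, chr17:74017194-74017217, minus strand: atatgcagGTtctagattttaata
Srd5a2 intron end, chr17:74017143-74017166, minus strand: atatgtgtatgttgAGggtcatat
The intron of Srd5a2 starts with GT and ends in AG.

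Members were few but held a large part of the reads with a new splice site. Replicate 1 held 824225 reads and replicate 2 held 656826, spike-ins left out. Of these, 27887 (3.38%) and 25791 (3.93%) lay on models of annotated genes with a new site. In replicate 1 84.9% of those models had a single read, as had 85.9% in replicate 2. The 220 members took 6832 reads in replicate 1, or 0.829% of the library (Wilson 95% interval 0.810 to 0.849%), and 6421 in replicate 2, or 0.978% (0.954 to 1.00%). That was 24.5% and 24.9% of all reads on such models. Srd5a2 alone gave 1661 and 1760 of the members' reads. The median member had 12 reads in replicate 1 and 11 in replicate 2, and 113 of 220 had 5 to 9 reads in 1 or both libraries. The interval of a member's share spanned a median of 10.1 percentage points in replicate 1 and 10.6 in replicate 2, and it covers counting error only. Cortex markers (5 of 5 read, 57389 and 60658 CPM summed, that is reads scaled to the library total) and medulla markers (5 of 5, 11251 and 12408) were high in both libraries. Adipocyte markers (4 of 4, summed 4805 and 1714) and erythroid markers (2 of 2, 1572 and 673) were also read. Liver markers stood at 0 and 3.04, and kidney markers at 7.28 and 9.13. The part of other cell types in the members' shares was not tested.

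A member's share of its gene ran from traces to the whole gene. The median share was 11% in replicate 1 and 11.7% in replicate 2. At least 10% of the gene's reads were held in both libraries by 108 members and at least 50% by 31, while 43 stayed under 1% in both. The shares followed the depth of the gene, since 5 reads are a small part of a deeply read gene. Genes of the members under 1% had a median of 6305 reads in replicate 1 and 4990 in replicate 2, and those of members at 10% or more had 45.5 and 48. Of the 181 genes, 158 had 1 member, 17 had 2 and 6 had 3 or more.

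At the read minimum, 37 members had 5 reads in their lower library, with median shares of 4.67% and 3.68%, and 70 shared models that just missed it had 4, with 4.91% and 5.06%. The class of a model also depended on the library. A further 78 chains of introns had at least 5 reads in each library but were placed in the class for new sites in 1 library only, and all 78 hold a site that no annotated transcript has. They were placed among new combinations of known sites or incomplete matches in the other library and are not members.

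**Figure D1:**
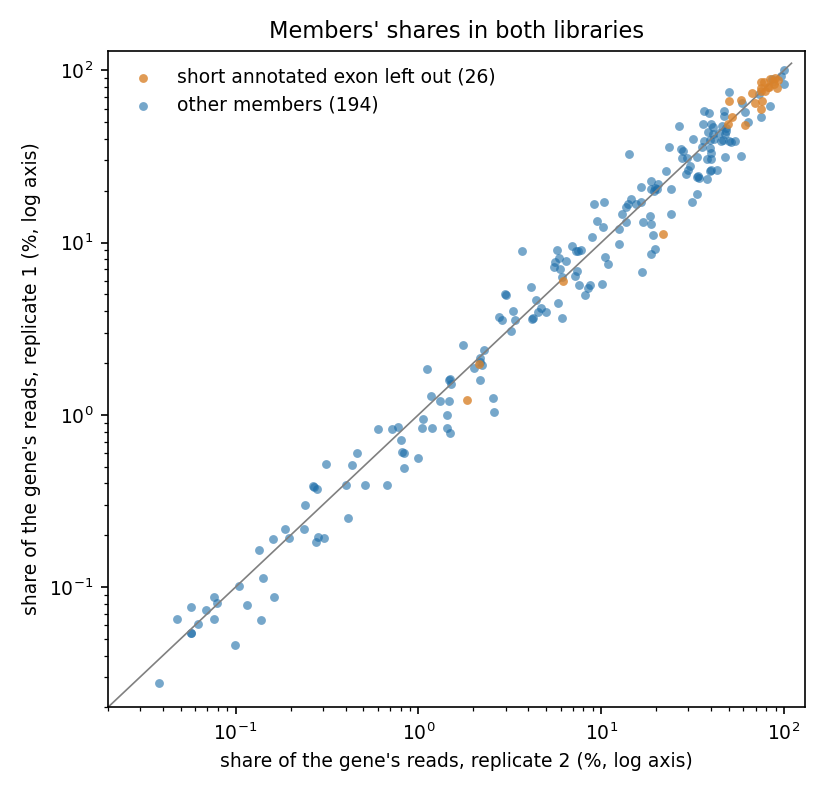
Share of the gene's reads held by each of the 220 members in replicate 1 (vertical, %, log axis) against replicate 2 (horizontal, %, log axis), 1 point a member, with the line of equal shares. Members that leave out a short annotated exon (26, orange) gather at the top right, and the other 194 (blue) spread from 0.0276% to 100%.

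Members' shares were compared between the libraries. For 201 members whose gene reached 20 reads in both libraries, 157 had shares within 5 percentage points of each other, and the median size of the difference, replicate 1 minus replicate 2, was 1.37 points. Over all 7753 spliced models tested, 4652 were within 5 points and the median size was 3.63. Members of small share cannot differ by much: of the 122 that held at least 5% in 1 or both libraries, 78 were within 5 points, with a median size of 3.34. None of the 201 was called by Fisher's exact test (two-sided, on reads, Benjamini-Hochberg adjusted p under 0.05 over all spliced models and at least 10 points), against 25 of 7753 spliced models (0.322%). At the adjusted p alone 0 of 201 passed, against 48 of 7753 (0.619%). An unadjusted p under 0.05 was seen in 5 of the 201 members, against 513 of the 7753 spliced models. The lowest adjusted p of a member was 0.290 by the exact test, for Srd5a2, with a difference of -3.25 points. Differences of at least 10 points numbered 20 among the 201 members, none of them called, and 1299 among all 7753 spliced models. The largest difference of a member was that of Cds2, with 19 of 40 reads in replicate 1 and 13 of 49 in replicate 2. The test compares these libraries and not conditions.

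New sites were divided between close and distant ones. The 220 members carried 263 new sites, of which 260 were distinct: 134 donors and 126 acceptors. The median distance to the nearest annotated site of the same kind in the gene was 29 nt (95% interval of the median 18 to 50 nt), with 132 sites up to 30 nt away and 131 further, up to 82606 nt. Set only against the annotated transcripts of the gene that were read here, the median was 48 nt. A single new acceptor was the change in 80 members (36.4%) and a single new donor in 77 (35.0%). An intron with both ends new was seen in 26 (11.8%), a new first or last exon in 28 (12.7%), a new internal exon in 6 and several separate new sites in 3. Among the 157 members with 1 moved exon edge the median move was 9 nt (5 to 16 nt), and 116 moved by at most 30 nt.

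Acceptors and donors moved by different amounts. New acceptors lay a median of 4 nt from the annotated one, and 36 of 80 moved by exactly 3 nt, 27 shortening the exon and 9 lengthening it. New donors lay a median of 15 nt away, with 53 of 77 lengthening the exon. The most frequent donor move was 4 nt, seen in 13 members and always into the intron, and 4 donors moved 3 nt into the exon. These sizes are also the most frequent among annotated sites: of neighbouring annotated acceptors up to 30 nt apart in the same gene, 787 of 3114 (25.3%) are 3 nt apart, and of such donors 298 of 1923 (15.5%) are 4 nt apart.

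**Figure D2:**
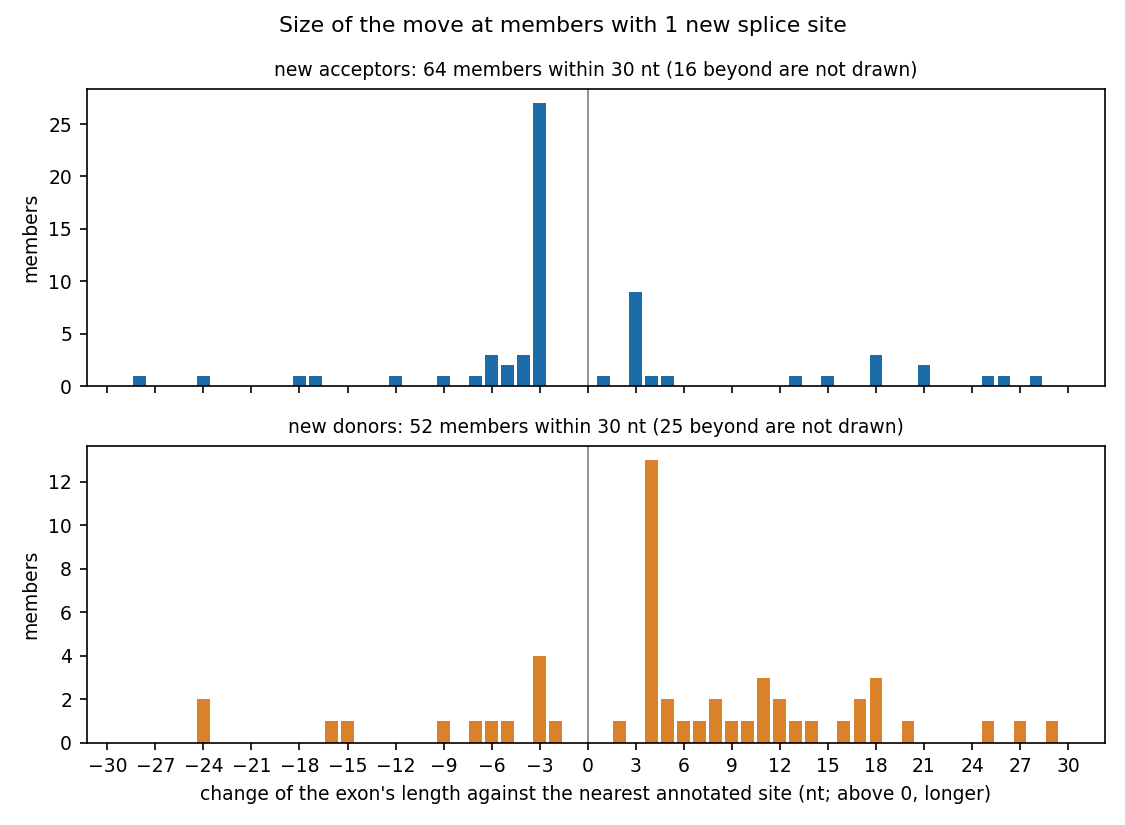
Number of members (vertical) by the change in exon length in nt (horizontal, above 0 longer) for members with 1 moved acceptor (top, 64 of 80 within 30 nt) or donor (bottom, 52 of 77 within 30 nt). Acceptors peak at 3 nt, mostly as loss of 1 triplet, and donors peak at a gain of 4 nt.

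Acceptor moves of 3 nt were more frequent among models with more reads. A move of 3 nt made up 36 of the 80 single new acceptors of members (45.0%), 194 of 902 in shared models under the read minimum (21.5%) and 1016 of 8474 in models of 1 library. Donors that moved by 4 nt showed no such order, at 16.9% of members, 18.1% of 908 shared models under the minimum and 21.3% of 7788 in 1 library. Moves of at most 30 nt made up 73.9%, 60.3% and 61.3% of the moved edges in the same order. Where the bases could be read, 91.7% of the members' donors (66 of 72) began with GT, against 90.4% and 89.7%. Of the members' acceptors 97.6% (83 of 85) ended in AG, against 98.7% and 97.4%. Among the distinct sites of members, 64 of 134 donors and 41 of 126 acceptors could not be read. These percentages thus cover only sites that lie in an annotated transcript or another sequence used. The other readable donors of members began with GC (6 sites). The read minimum sets members apart from the other models by design, so these are descriptions with no test.

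Most members changed within the coding span. That span runs from the first to the last coding base of the closest annotated transcript, introns included. A change within it is called coding here. The change lay in the span in 130 members (59.1%), before it (5' UTR) in 60, after it (3' UTR) in 23 and in a non-coding transcript in 7. New end exons were placed in the same way, 13 of 28 as coding, so such an exon need not hold coding sequence. Of the moved edges in coding sequence 60 of 101 moved by a multiple of 3 (59.4%, Wilson 95% interval 49.7 to 68.5%). In UTRs 22 of 52 were (42.3%, 29.9 to 55.8%), and the intervals overlap. Coding acceptors were multiples of 3 in 44 of 57 (77.2%) and coding donors in 16 of 44 (36.4%). Without members that leave out a short exon, coding sequence had 53 of 78 (67.9%). The moved edge is not always the only difference, since a member can also leave out an exon or differ at annotated sites. Over the whole model, 58 of the 100 coding members whose net change in length from the closest annotated transcript is known changed by a multiple of 3, and 52 did so both at the edge and in net length.

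The reading frame could be followed to a stop codon in 139 members. In 74 the annotated start and stop codons were kept with no change in length, and in 1 of the 74, Rwdd4a, the change lay in coding sequence. In 43 the annotated stop was kept and the protein changed in length, in 27 of them by 1 codon. In 22 members the frame ran into another stop codon, shortening the protein in 20, and in 15 of the 22 that stop lay over 50 nt before the last exon junction. In 1 member, Cggbp1, no stop codon was reached in the model. The remaining members could not be followed because the start codon was not in the model (19), because intronic bases were not in the sequence files used (56) or because the gene had no complete annotated coding transcript (5).

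Shares differed between the kinds of change. Gene depth, which limits how small a listed share can be, was not made equal between the kinds, and its part was not tested. The grouping by kind was made after the values had been seen. A short annotated exon left out, with bases added at the edge of a neighbouring exon, marked 26 members, with median shares of 74.8% in replicate 1 and 74.7% in replicate 2. They made up 21 of the 34 members with a mean share of at least 50%. Acceptors moved by 3 nt (35 members) had medians of 13.3% and 12.5%. Donors moved by 4 nt (9 without a short exon left out) had medians of 0.602% and 0.994%. Other moves of up to 30 nt (48) stood at 5.62% and 4.99%, moves over 30 nt (41) at 5.45% and 7.34%, introns inside an annotated exon (19) at 23.3% and 26.5%, and new end exons (28) at 14.5% and 15.5%. New internal exons (6) had medians of 4.33% and 4.70%, and 8 other members 12.8% and 20.3%.

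**Figure D3:**
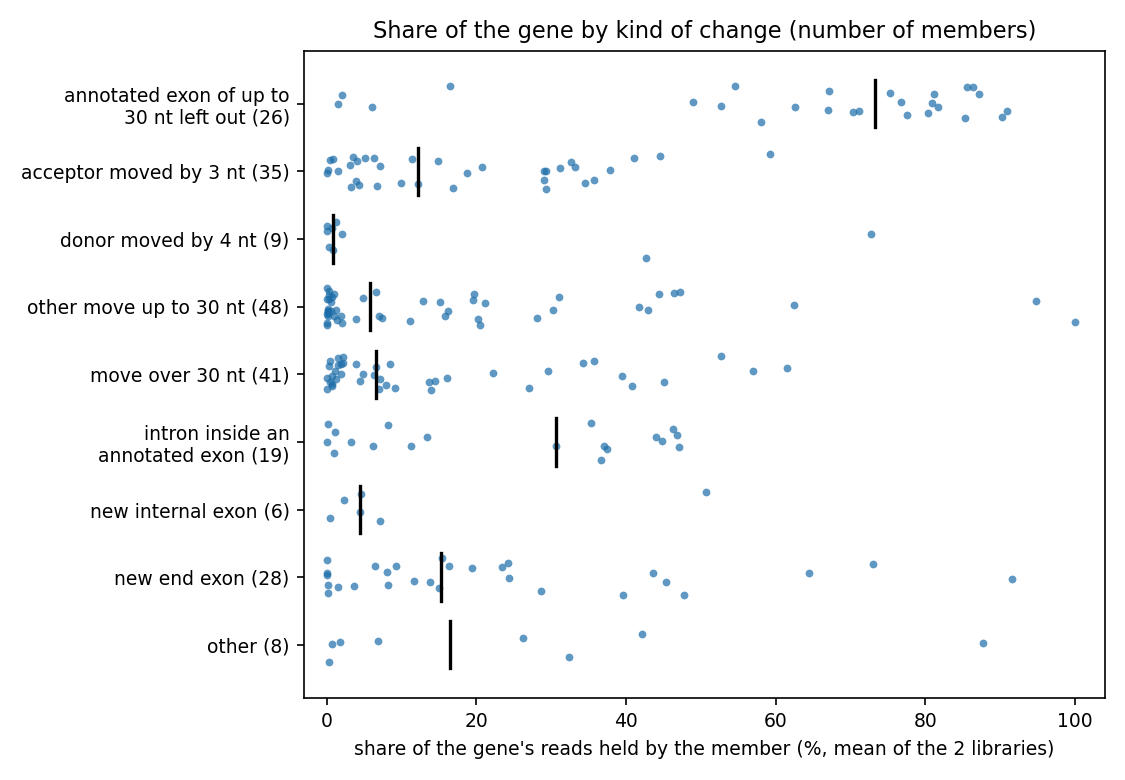
Share of the gene's reads (horizontal, %, mean of both libraries) for each member, by kind of change (vertical, number of members in brackets), with black bars at the group medians. Members that leave out an annotated exon of up to 30 nt are the one group whose median passes 50%.

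Members that leave out a short annotated exon held most of the reads of most of their genes. The exons left out were 3 to 30 nt long (median 17), 3 to 28 nt were added at the neighbouring edge (median 12.5), and the change in length stayed within 5 nt in 19 of 26. The added bases followed the donor of the exon before in 20 members, preceded the acceptor of the exon after in 5, and did both in 1. Idh3g, which encodes a regulatory subunit of the mitochondrial isocitrate dehydrogenase, had 258 of 322 reads on the member in replicate 1 (80.1%, 75.4 to 84.1%) and 166 of 203 in replicate 2 (81.8%, 75.9 to 86.5%). Its donor lies 4 nt inside the intron and its 12-nt exon is left out, so the model is 8 nt shorter than the annotated transcript. None of the 309 and 196 reads that ran over that exon was modelled with it.

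The other abundant genes of this kind had the same pattern. Chmp1a, whose product is a subunit of the membrane-cutting ESCRT-III complex, had 177 reads on the member in replicate 1 (83.1% of the gene) and 207 in replicate 2 (88.1%), with 25 nt added and 20 nt left out. Pitpna, a phosphatidylinositol transfer protein gene, had 146 of 161 (90.7%) and 159 of 177 (89.8%), with 4 nt added and 8 nt left out. Mrpl33, for a protein of the large mitochondrial ribosomal subunit, had 196 of 220 (89.1%) and 93 of 111 (83.8%), with 8 nt added and 19 nt left out. In each of these genes the annotated exon was modelled in few of the reads that ran over it: 5.24% and 3.64% in Chmp1a, none in Pitpna, and 1.92% and 3.81% in Mrpl33. Capn2, the catalytic subunit gene of calpain 2, had 107 of 121 reads (88.4%) and 98 of 105 (93.3%), and Lmf1, a factor for the folding of lipases, 48 of 55 (87.3%) and 27 of 31 (87.1%). In neither was a read that ran over the annotated exon modelled with it, although 2 reads of Capn2 in replicate 2 had an annotated intron that borders the exon.

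Some members of this kind differed in detail, and those in the next sentences were chosen after their values were seen. Pitpnb, the paralogue of Pitpna, left out an exon of 8 nt and added 8 nt, a change of 0, with 36 of 74 reads (48.6%) in replicate 1 and 34 of 69 (49.3%) in replicate 2. In Rwdd4a the exon of 3 nt, CAT, was left out and 3 nt were added before the next exon, with the new intron ending in AT in place of AG. The member had 24 of 28 reads (85.7%) in replicate 1 and 21 of 27 (77.8%) in replicate 2. Uchl1, a ubiquitin hydrolase of neurons and neuroendocrine cells, added 9 nt for an exon of 12 nt (49 of 62 reads, 79.0%, and 35 of 47, 74.5%). In Bsg, Ifi27l2a and Derl1 the annotated exon was instead the main form, held by 92.5% and 92.0%, 98.7% and 97.9%, and 97.6% and 97.3% of reads over it, and the members held 5.99% and 6.19%, 1.22% and 1.84%, and 1.96% and 2.15% of their genes. Over the 26 members, the exon was modelled in at most 10% of the reads that ran over it in both libraries in 23 and in none of these reads in 18. In 10 of the 18 up to 4 reads in a library had an annotated intron that borders the exon, and in 8 none had. Reads that skip the exon without any added bases were seen in 10.

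Added and omitted bases differed in number and in letters to varying degrees. The added stretch was shorter by 8 nt in Idh3g, by 11 nt in Mrpl33 and by 17 nt in Mxra8, and of the same length in Pitpnb and Rwdd4a. For the 11 members with readable letters, 32 of 98 compared positions (32.7%) had the same base in the added stretch as in the omitted exon. It ran from 2 of 12 positions in Rrp1 to 8 of 12 in Capn2 and 2 of 3 in Rwdd4a. All 10 readable donor extensions began with GT, the start of the annotated intron. The change in length was no multiple of 3 in 18 of the 25 members whose omitted exon is coding, and the 8 members of this kind that could be read to another stop were Idh3g, Chmp1a, Pitpna, Mrpl33, Capn2, Lmf1, Mxra8 and Rrp1. As modelled, Idh3g would end after 46 of 393 codons, Chmp1a after 34 of 196, Pitpna after 102 of 271 and Capn2 after 441 of 700, each with the stop over 50 nt before the last junction. Mrpl33 would end after 42 of 65, with the stop 8 nt before it. Uchl1 would lose 1 codon.

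**Figure D4:**
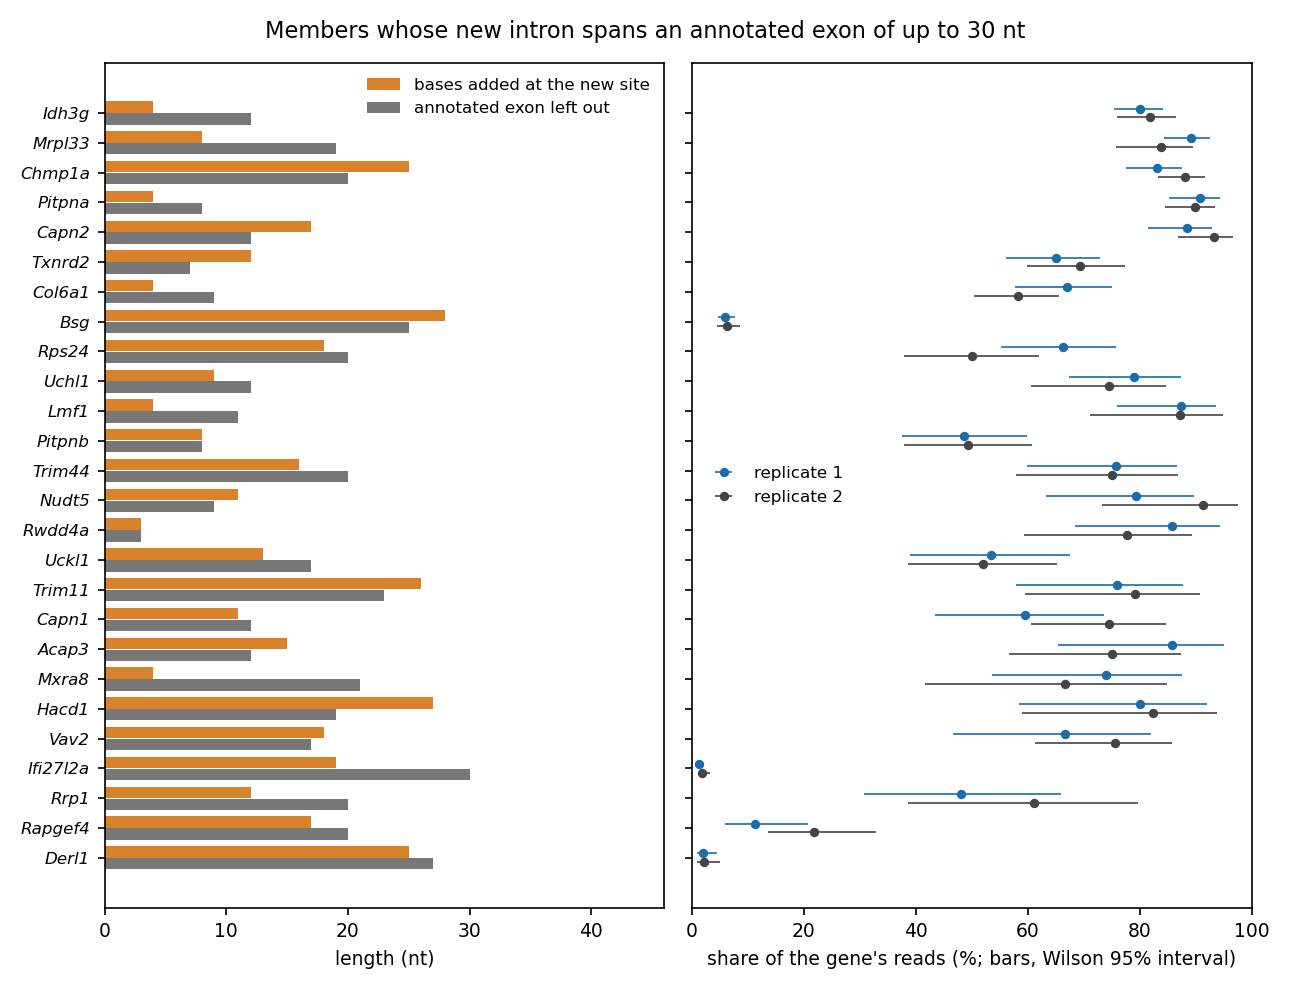
For the 26 members that leave out an annotated exon of up to 30 nt, left, the bases added at the new site (orange) and the length of the omitted exon (grey) in nt, and right, the share of the gene's reads in replicate 1 (blue) and replicate 2 (black) with Wilson 95% intervals. Both bars differ by at most 5 nt in 19 of the 26 members, and 3 genes (Bsg, Ifi27l2a and Derl1) stay under 10%.

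The shortest annotated exons were rarely part of the models. Among annotated internal exons that at least 20 reads ran over in each library, all 32 of 3 to 10 nt were modelled in at most 10% of those reads in both libraries. The share was 95.1% in replicate 1 and 97.6% in replicate 2 of 41 exons of 11 to 15 nt, 63.4% and 65.9% of 41 exons of 16 to 20 nt, and 45.9% and 45.0% of 111 exons of 21 to 25 nt. It was 15.1% and 16.3% of 172 exons of 26 to 30 nt, 8.15% and 8.36% of 2860 exons of 41 to 60 nt, and 4.46% and 4.42% of 17993 exons of 61 to 120 nt. Members left out 24 of the 399 exons of up to 30 nt (6.02%), among them 6 of the 32 of up to 10 nt, 8 of the 41 of 11 to 15 nt and 6 of the 41 of 16 to 20 nt. Exon length thus moved with inclusion across the whole annotation, and the part of read alignment in it was not tested.

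**Figure D5:**
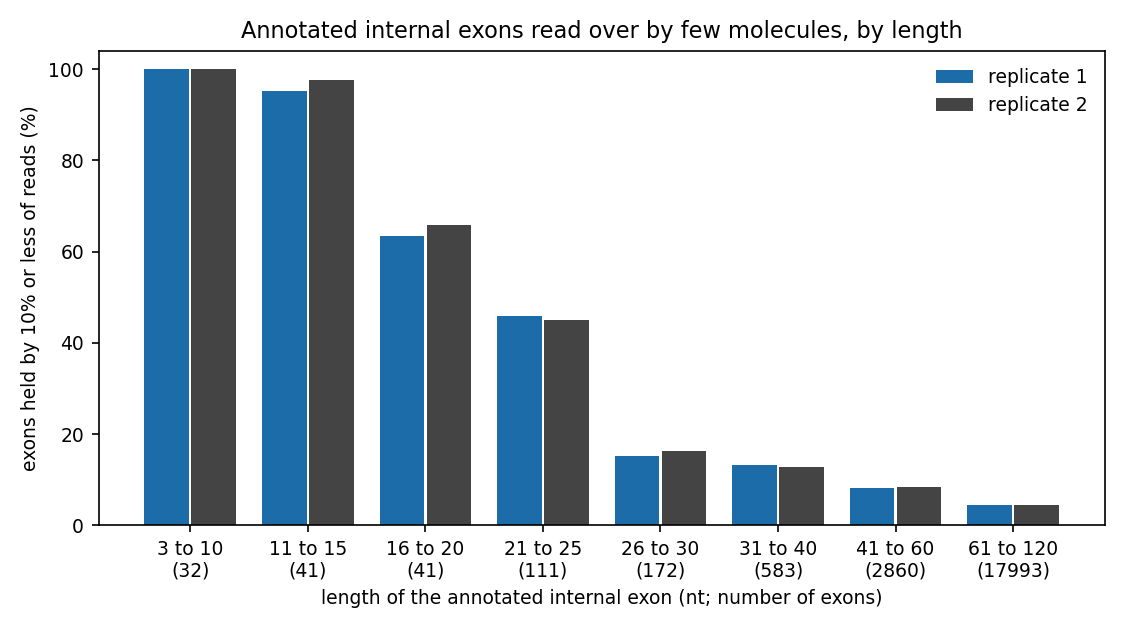
Percent of annotated internal exons held by at most 10% of the reads that run over them (vertical, %) by exon length in nt (horizontal, number of exons in brackets), in replicate 1 (blue) and replicate 2 (black). The bars stand at 100% for exons of 3 to 10 nt and at 4.46% and 4.42% for exons of 61 to 120 nt.

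Acceptors that moved by 3 nt were a minor form in most of their genes. They numbered 35 without the short-exon members, 29 of them in coding sequence, and 18 held at least 10% of their gene in both libraries. The highest share was that of Fam114a2, chosen after its values were seen, with 57.6% in replicate 1 and 61.0% in replicate 2. Of the 30 with readable letters all triplets ended in AG, and the triplet was CAG in 16, AAG and TAG in 5 each and GAG in 4. Exons longer by the triplet (8) had median shares of 31.8% and 36.2%, and exons shorter by it (27) had 7.82% and 6.40%. Aebp1, an extracellular matrix gene of connective tissue, gained 3 nt in 129 of 331 reads in replicate 1 (39.0%, 33.9 to 44.3%) and 142 of 387 in replicate 2 (36.7%, 32.0 to 41.6%). At that junction the new acceptor was used by 55.2% and 49.0% of reads with its donor, so both acceptors were in common use.

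The triplets shown above differed widely in use. Ewsr1, an RNA-binding protein gene, had the added triplet in 53 of 218 reads in replicate 1 (24.3%) and 64 of 190 in replicate 2 (33.7%), and Ap2a2, a clathrin adaptor gene, in 24 of 91 (26.4%) and 34 of 85. The triplet left out was more common in Tmco3, with 16 of 41 reads (39.0%) and 25 of 50, than in Flii, an actin-binding protein gene, with 18 of 79 (22.8%) and 23 of 122 (18.9%). Psap, the precursor of the saposins of lysosomal lipid breakdown, left it out in 33 of 427 (7.73%) and 26 of 464 (5.60%). In Star, which moves cholesterol into mitochondria, 19 of 9898 reads (0.192%) and 19 of 9637 (0.197%) lacked a GAG. Each of these changes adds or removes 1 codon and keeps the annotated stop. Tra2b, a splicing regulator, belonged here as well, with 8 of 50 reads and 7 of 51 (13.7%).

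Donors moved by 4 nt into the intron were mostly traces. Without the short-exon members they numbered 9, and 7 of these lay in coding sequence, where the net change was the same 4 nt in 6 and 0 in Cpm. Chga, the chromogranin A gene of chromaffin granules, had the longer exon in 11 of 2830 reads in replicate 1 (0.389%) and 7 of 2628 in replicate 2 (0.266%). In Cyp11a1, with 21722 and 13061 reads, the share was 0.0783% and 0.115%, and in Star, with 9898 and 9637, it was 0.101% and 0.104%. Pold2 and Cpm, chosen after their values were seen, were the exceptions among the 9. Both genes had far fewer reads than these, and the part of depth in the shares was not tested. Pold2, a DNA polymerase delta subunit gene, had the change in its 5' UTR in 26 of 53 reads (49.1%) and 17 of 47 (36.2%). In Cpm, the carboxypeptidase M gene, 16 of 22 reads in each library (72.7%, 51.8 to 86.8%) had a donor 4 nt further on and a next exon 4 nt shorter than in the closest annotated transcript, so that the length did not change.

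Such sliding of a whole intron was seen in other genes. In Got2, the mitochondrial aspartate aminotransferase gene, both ends of the last intron lay 4 nt further along, with no change in length, in 72 of 184 reads (39.1%) and 79 of 175 (45.1%). In Pak6 both ends also moved by 4 nt, in 5 of 26 reads (19.2%) and 10 of 30 (33.3%). Cep89 and Soat1 gained 4 nt at the donor and lost 3 nt at the acceptor, a change of 1 nt, and Hsd3b1 gained 5 nt and lost 8 nt in 19 of 6305 reads (0.301%) and 12 of 4990 (0.240%). The Got2, Pak6, Cep89 and Soat1 members were chosen after their values were seen. In exon models a slid intron and bases that differ between a read and mm10 at the junction cannot be told apart.

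Other donors and acceptors near an annotated site reached large shares in a few genes. Mknk2, a kinase that phosphorylates the translation factor eIF4E, ended its first exon 42 nt earlier in the 5' UTR in 242 of 376 reads in replicate 1 (64.4%, 59.4 to 69.0%) and 237 of 403 in replicate 2 (58.8%, 53.9 to 63.5%). A second member with the same donor, and with its next acceptor 59 nt from an annotated one, had 24 and 29 reads. Penk, the proenkephalin gene of chromaffin cells, began its second exon 1 nt further upstream in 27 of 29 reads (93.1%, 78.0 to 98.1%) and 27 of 28 (96.4%, 82.3 to 99.4%). The new intron of Penk ends in AG, whereas the annotated site 1 nt further on follows GC, and all 27 reads with that donor in each library used the new site. Dctn2, a dynactin subunit gene, added the 10 nt shown above in 87 of 204 reads (42.6%) and 69 of 169 (40.8%), and as modelled would end after 38 of 402 codons. Dctn2, Smdt1 and Api5 were chosen after their values were seen. Smdt1, a regulator of the mitochondrial calcium uniporter, lost 7 nt in its 3' UTR in 101 of 217 (46.5%) and 46 of 96 (47.9%), and Api5, an apoptosis inhibitor gene, began its last exon 5 nt earlier in 44 of 111 (39.6%) and 55 of 119 (46.2%).

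Introns inside annotated exons included the most abundant member. The 19 introns were 44 to 1007 nt long (median 146) and 11 lay in the 3' UTR, where they were 44 to 174 nt long. Srd5a2, a steroid 5α-reductase gene, had a 59-nt intron in its 3' UTR (chr17:74017151-74017209) in 1661 of 3720 reads in replicate 1 (44.7%, 43.1 to 46.3%) and 1760 of 3674 in replicate 2 (47.9%, 46.3 to 49.5%). Counted over every model, 1845 reads had the intron and 1724 ran through it in replicate 1 (51.7%), as did 1994 and 1641 in replicate 2 (54.9%). The reads of Srd5a2 were thus nearly evenly divided between both forms in each library, and the protein is the same in both. Over the 11 introns in 3' UTRs, the share of reads over the stretch that had the intron ran from 14.2% to 87.9% in replicate 1 and from 10.7% to 94.7% in replicate 2. Whether a form comes from 1 parental genome was not tested.

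Of the 19 introns, 17 had GT and AG at their ends. One of the others, Smim14, had GT and AT. The sequence next to the start of the stretch was repeated at its end over at least 8 nt in 6 of the 19 introns (31.6%), each allowing the ends to be placed up to 8 nt apart. Among these were Cds2 (68 nt), Mafk (39), Lrrc47 (35), Bag2 (20) and B230219D22Rik (15), against 3 nt in Srd5a2. Of 11539 annotated introns that lie inside an annotated exon of the same gene, 1.26% had such a repeat. Among introns of up to 200 nt, it was seen in 5 of 13 members (38.5%) and 96 of 4502 annotated introns (2.13%). Such repeats mark places where the copy left out cannot be told from the copy kept. At how many positions ends with GT and AG could be placed there was not tested.

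Larger moves lay most often in the 5' UTR, and new end exons were mostly first exons. Moves over 30 nt numbered 41, and 22 of them lay in the 5' UTR, some at acceptors of exons after the first. New end exons numbered 28: 20 first exons, 7 last exons and 1 model (Nckap5) with both. Of the 20 first exons 6 lay upstream of every annotated exon of the gene and 14 inside it, and none began within 50 nt of an annotated start. A RefSeq start was found for 15 of their genes, and 3 of the 15 new first exons began within 50 nt of one. In Hnrnpf, a splicing regulator, the new first exon of 120 nt held 23 of 242 reads (9.50%) and 16 of 230 (6.96%). In Cyb561, the cytochrome b561 gene of chromaffin granules, a new first exon of 225 nt held 16 of 397 (4.03%) and 13 of 395 (3.29%). Another member of Cyb561 had 27 reads (6.80%) and 29 (7.34%). Its first exon is 171 nt long, of which 170 nt lie past the annotated donor, so it barely overlaps the annotated exon. Pik3ca, a catalytic subunit gene of phosphatidylinositol 3-kinase chosen after its values were seen, had 13 of 21 reads (61.9%, 40.9 to 79.2%) and 16 of 19 (84.2%, 62.4 to 94.5%) on a first exon that began 2 nt from a RefSeq start.

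A new internal exon reached a large share in 1 gene. Tbc1d15, a GTPase-activating protein gene for Rab proteins chosen after its values were seen, held an added exon of 51 nt, or 17 codons, in 42 of 77 reads (54.5%, 43.5 to 65.2%) and 23 of 49 (46.9%, 33.7 to 60.6%). The other 5 members of this kind stayed under 10% in both libraries. Cct6a, a chaperonin subunit gene, had 162 of 182 reads in replicate 1 (89.0%, 83.6 to 92.8%) and 116 of 134 in replicate 2 (86.6%, 79.8 to 91.3%) on a member with an intron of 50376 nt whose ends are both new. Its closest annotated transcript is non-coding, so the frame was not read. Reads of near-identical gene copies can be placed on either copy, which makes the members of Entpd4 and Entpd4b uncertain. Both lacked 24 nt at a donor, in 41 of 199 reads (20.6%) and 36 of 177 (20.3%) for Entpd4 and in 41 of 188 (21.8%) and 38 of 185 (20.5%) for Entpd4b.

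Steroid genes held many members of small share. Of 27 genes of steroid synthesis and cholesterol delivery that reached 20 reads in both libraries, 11 had a member, 32 members in all. Among all annotated genes 162 of 5347 (3.03%) had one. The median share of those members was 0.152% in replicate 1 and 0.180% in replicate 2, against 11% and 11.7% for all members. Genes of the list had a median of 480 reads in replicate 1 and 341 in replicate 2, against 62 and 52 for all genes, and depth sets how many models can reach 5 reads. The list was chosen with results of these libraries known.

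Within single steroid genes the new sites were many and each was rare. Cyp21a1, the 21-hydroxylase gene, had 9 members with 5 to 34 reads each in replicate 1 and 5 to 43 in replicate 2, in sum 1.11% and 1.22% of its reads. Reads of its pseudogene copy may be among them, so its values are uncertain. Cyp11a1, the side-chain cleavage enzyme gene, had 6, in sum 0.506% and 0.697%, of which the largest was an intron of 1007 nt with 47 and 31 reads (0.216% and 0.237%). In Cyp11b1, the 11β-hydroxylase gene with the near-identical neighbour Cyp11b2, the largest of 3 members began the last exon 21 nt earlier in 75 of 6223 reads (1.21%) and 93 of 6342 (1.47%). In Hsd3b1, the 3β-hydroxysteroid dehydrogenase gene of a family with close copies, a 5' UTR acceptor 31 nt further in held 52 reads (0.825%) and 36 (0.721%). Abcb1b, a transporter gene read at high level here, had 4 members, in sum 0.956% and 0.750%, and Star had 3, in sum 0.354% and 0.363%.

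The other gene lists held 1 to 4 members each. Of 19 chromaffin-cell genes 3 had a member (15.8%, against 3.03% of all annotated genes): Penk, Cyb561 and Chga, above. These 19 genes had a median of 160 reads in replicate 1 and 73 in replicate 2. Of 86 genes of oxidative phosphorylation 3 had one (3.49%). Sdhb, a subunit gene of succinate dehydrogenase, lost 6 nt at the start of its second exon in 34 of 596 reads (5.70%) and 21 of 279 (7.53%), a loss of 2 codons. Atp5j, the coupling factor 6 gene of ATP synthase, had 2 members in its 5' UTR with 4.15% and 4.69%, and 3.63% and 4.23%. Ndufab1, the acyl carrier subunit gene of complex I, had 12 of 330 reads (3.64%) and 8 of 131 (6.11%) on a last exon that begins 78 nt earlier. Of 81 ribosomal protein genes 2 had a member (2.47%). Rps24 left out a 20-nt exon with 18 nt added in 51 of 77 reads (66.2%, 55.1 to 75.8%) and 31 of 62 (37.9 to 62.1%), with the protein unchanged, and Rpl7l1 ended an exon 5 nt later in 26 of 76 (34.2%) and 21 of 75 (28.0%). Of 75 splicing factor genes 2 had a member (2.67%, Hnrnpf and Tra2b), and of 83 proteasome and ubiquitin genes 1 had one (1.20%): Psmd8, with 14 of 155 reads (9.03%) and 8 of 103 (7.77%).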

How the data were processed

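Long-read RNA-seq libraries of adrenal glands formed 1 group of 2 samples, with replicate numbers from the labels. The authors deposited raw read counts per transcript model, with exon numbers and lengths per model, and an exon annotation on mm10 with GENCODE M21, per the deposited notes. TALON made the models for each library separately, per the file headers. The sources used here do not give the aligner. Depth was 824225 and 656826 reads.

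Models of both libraries counted as the same where chromosome, strand and every intron agreed. Each new site was set against annotated sites of the same kind in its gene, and position and frame were read from the annotated transcript that shares most introns. Intronic bases were readable only where an annotated transcript covers them. Shares are a model's reads over all reads of its gene, with Wilson 95% intervals. Intervals cover counting error only, since the files hold no molecular identifiers, and a count of 0 allows up to 3 reads. Fisher's exact test, two-sided and Benjamini-Hochberg adjusted, compared the shares of the 2 libraries over all spliced models with at least 5 reads in each library in genes with at least 20, a step tested on simulated data. The quasi-likelihood test needs replicates in groups and could not be fitted. A moved edge is 1 new site that lengthens or shortens an annotated exon, and a short exon has at most 30 nt.

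Members named are the 10 with most reads, the 6 of largest share in genes with at least 20 reads, any called between the libraries, and the 4 most abundant of each gene list. For sequences the rule was the most abundant with a move of at most 30 nt, and the donors that add bases followed it where bases were readable. The acceptors moved by 3 nt and the donor of Abcb1b are examples that pass over more abundant members, such as Cdkn1c. The intron of Srd5a2 is no such move and was shown as the most abundant member. Others were chosen after their values were seen. The members and lists were chosen with earlier results of these data known. Alternatives varied the read minimum, the libraries required, the matching, the annotated sites used and the denominator of the share. Scripts ran in Python 3.11.15 (scipy 1.17.1, pandas 2.3.3, numpy 2.4.6), with matplotlib 3.10.9 for figures.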

Additional observations from a re-analysis of the deposited data

How the results depend on the processing

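The number of members followed the read minimum. There were 456 at 3 reads, 107 at 10 reads and 378 to 476 when 1 library at 5 reads was enough, and 347 chains with an unannotated site when every spliced class was taken, an alternative chosen after seeing the data. At 10 reads the median distance was 15 nt, coding changes made up 67.3%, 5' UTR changes 19.6% and new end exons 7.48%, and the median share was 28.0%. With 1 library left out, introns with both ends new made up 8.19% to 8.73% and the median share was 7.71% to 8.20%. Taken over the reads that run over the changed intron, the median share was 17.1%. The cause was not tested, apart from the read minimum's own effect on counts and shares. The other 50 of 64 alternatives stayed within the limits set for a change. No paired analysis was possible because the series holds 1 group. Depth limits what could be listed: in a gene with 20 reads a model with 4 reads is no member.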
